A study of Rattus norvegicus with 6 samples.

Results

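The genes described here form the core of the NRF2 antioxidant programme: the transcription factor gene Nfe2l2, the cystine importer Slc7a11, the glutathione genes Gclc, Gclm and Gsr, the thioredoxin and peroxiredoxin genes Txnrd1, Srxn1 and Prdx1, the quinone reductase Nqo1, and Osgin1. They were read from all probe sets annotated with exactly 1 of these 10 gene symbols. That rule gave 13 probe sets of 31042 in all. They covered 9 of the 10 genes, out of 14217 genes with such a probe set, because the probe set that lists Prdx1 also lists Prdx1l1. Expression had been profiled on Affymetrix rat arrays in vascular smooth muscle cells grown from rat aorta. In 3 samples the cells had lain under laminar flow in a parallel-plate chamber for 24 h, with 14 dyn per square centimetre of shear at the cell surface, and 3 samples were static controls. All 6 cultures were used at passage 3 to 5 and had been held for 24 h in medium with 0.1% albumin and no serum before the experiment, after expansion in 10% fetal calf serum. Each shear sample shared a pairing number, 1 to 3, with a static sample. Animal, strain and age are not given in the sources used here, nor is what a pair shared, so the p-values cover only the variation among these 6 samples and that variation may be technical.

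NRF2, the protein of Nfe2l2, is held at a low level in unstressed cells because KEAP1 and the CUL3 ubiquitin ligase mark it for degradation. Oxidants and electrophiles modify KEAP1, NRF2 then accumulates, pairs with small MAF proteins and binds antioxidant response elements in the promoters of its target genes. The targets import cystine, make and recycle glutathione, reduce thioredoxin and peroxiredoxins, and detoxify quinones. In vascular cells this programme is known for its response to flow, studied mostly in endothelium.

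Signals on these arrays are MAS5 values per probe set, on a linear scale already set to a common mean by the authors. Changes were tested in limma on log2(signal + 16) with the pair as a block, and p-values were adjusted over 21729 probe sets that remained after the dimmest 30% had been left out. "Rose" and "fell" are used below for an adjusted p under 0.05. The response was broad: 52.8% of the tested probe sets changed, 24.3% as risen and 28.5% as fallen, with a median log2 fold change of -0.067. Median centring of the arrays moved that median to 0.082 and the calls to 6814 risen and 4720 fallen, against 5283 risen and 6188 fallen, so a change smaller than this shift has no settled direction. Shear array 1 stood apart from shear arrays 2 and 3 on the second principal component, which held 6.28% of the variance. On the first, which held 85.8% and separated the groups, it lay nearer the static arrays (-46.1, against -63.0 and -62.7). Results are therefore also given without pair 1. The 3′ to 5′ log2 signal ratio of beta-actin was 0.392 ± 0.028 in shear and 0.254 ± 0.036 in static arrays (SD, n = 3 each; two-sided exact permutation p = 0.1, the smallest possible), and its part in the results was not tested. Smooth muscle markers were expressed but moved with the groups. Of 10 tested, 0 rose and 7 fell, and their summed signal was 5722 to 5818 in shear and 8583 to 9571 in static arrays. In such bulk samples fewer cells of a type and less RNA per cell cannot be told apart. Of endothelial markers, 1 rose and 1 fell of 5 tested, with sums of 212.8 to 225.5 in shear and 216.8 to 250.8 in static arrays. Among them Pecam1, Kdr, Vwf and Nos3 lay below the filter, with means of 4.33 or less in either group. Of the 5 tested, Egfl7 averaged 79.4 in shear and 110.5 in static cells and fell. Flt1 averaged 53.6 in shear and 27.8 in static cells and rose. Erg (40.6 in shear and 44.1 in static cells), Tek and Esam did not pass. Leukocyte markers summed to 147.8 to 192.5 in shear and 200.2 to 252.1 in static arrays, with 2 risen and 1 fallen of 5 tested, and Ptprc and Itgam had means of 1.87 or less. Most of that sum was Cd14, which averaged 107.9 in shear and 181.9 in static cells and fell. Cd68 (25.8 in shear and 10.1 in static cells) and Coro1a (12.2 in shear and 4.83 in static cells) rose, and Cd3e and Csf1r did not pass. Fibroblast markers had 3 risen and 4 fallen of 9 tested, with sums of 6185 to 9604 in shear and 6679 to 9747 in static arrays. The matched markers of these lists with a signal of exactly 0 on any array numbered 0. Whether the marker shifts bear on the results was not tested.

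All 12 member probe sets that passed the filter rose under shear, against a background of 24.3% risen. That background includes dim probe sets, whereas the 13 member probe sets had a median percentile of 95.4 by mean log2 signal. With the dimmest 50% left out, the 12 rose, as did 4884 of the 15521 probe sets then tested. On each of the 12 every shear array lay above every static array, which held for 27.1% of tested probe sets. The median log2 fold change over the 9 genes, each taken by its brightest probe set, was 2.28, against -0.067 over all tested probe sets. It was 1.93, 2.52 and 2.38 in pairs 1 to 3, and 2.45 in the fit without pair 1. The changes fell into a small and a large range. Gclc, Nqo1 and Nfe2l2 rose by 0.63 to 0.80 on the log2 scale, and the other 6 genes by 1.85 to 4.65. A log2 fold change above 2, a limit chosen after the values were seen, was reached by 7 of the 12 probe sets and by 0.966% of all tested probe sets. The 13th probe set, the dimmest of 3 for Srxn1, was below the filter and was not tested.

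**Figure D1:**
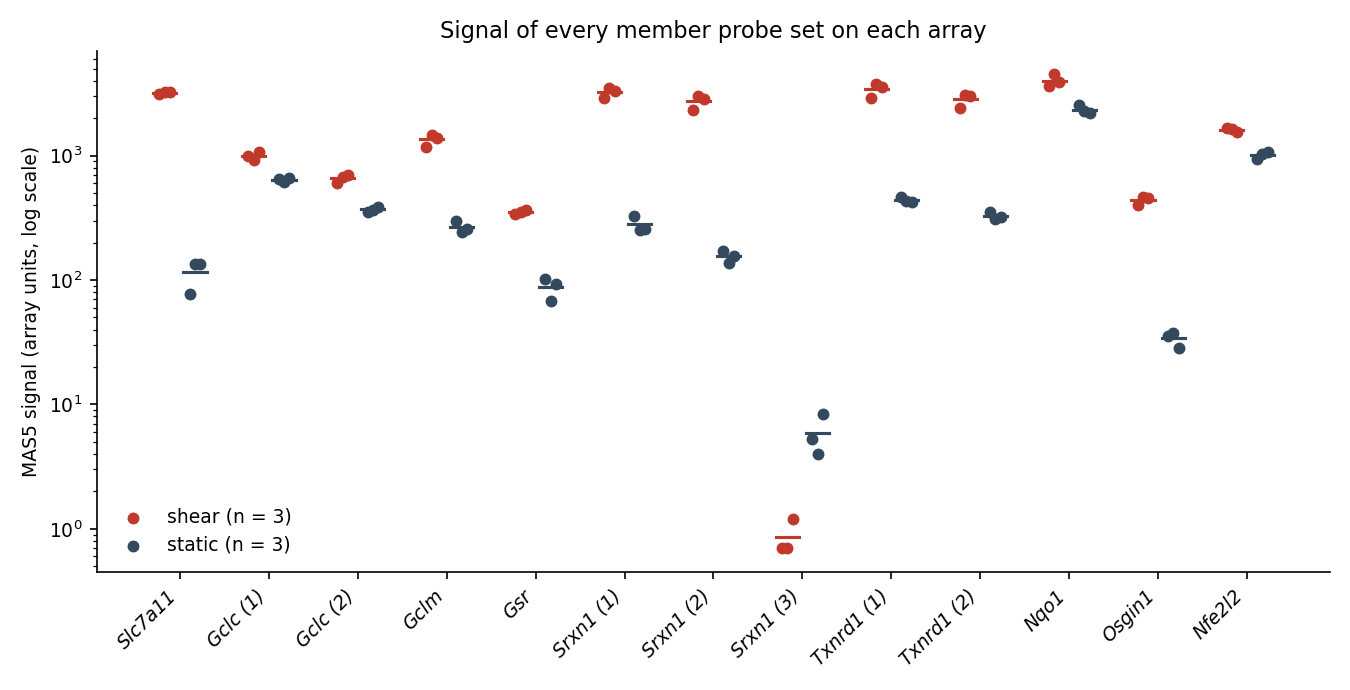
MAS5 signal (log axis) of the 13 member probe sets, with 1 point per array, shear left and static right, and a bar at each mean; numbers in brackets order a gene's probe sets from bright to dim. In all but Srxn1 (3), which lies under 10 on all arrays, the 3 shear arrays sit above the 3 static arrays.

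Nfe2l2 encodes NRF2 itself. Its signal was 1669, 1629 and 1560 on shear arrays 1 to 3, against 948.0, 1031 and 1063 on static arrays 1 to 3. Every shear array was higher than every static array, and within each group the arrays lay close together. Nfe2l2 rose by 0.67 on the log2 scale (95% interval 0.49 to 0.84, adjusted p = 0.0002), with pair values of 0.81, 0.65 and 0.55. NRF2 activity is set mainly by the stability of the protein, which an array does not measure. Without pair 1 the change was 0.60.

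Slc7a11, the light chain of the cystine-glutamate antiporter xCT that brings in cystine for glutathione synthesis, changed most of the members. Its signal was 3125, 3218 and 3230 on the shear arrays, against 77.0, 134.5 and 134.3 on the static arrays. The shear values were nearly equal, while static array 1 was clearly below the other static arrays. Slc7a11 averaged 3191 ± 57.4 in shear and 115.3 ± 33.1 in static cells (SD, n = 3 each), a ratio of 27.7. The log2 fold change of 4.65 (95% interval 4.33 to 4.96, adjusted p = 1.2e-06) ranked 8th of the 21729 tested. It was 5.08 in pair 1 and 4.43 in pairs 2 and 3, so the low static array 1 gave the largest pair value. The change was 4.43 without pair 1 and between 4.20 and 4.82 with 64 or 1 added before log2 in place of 16. Slc3a2, the heavy chain that carries the antiporter to the cell surface, is shared with several other amino acid transporters. It had 2802, 2954 and 2788 on the shear arrays, against 899.7, 1184 and 1264 on the static arrays, and rose by 1.35 (adjusted p = 2e-05).

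Glutathione is built by glutamate-cysteine ligase, whose catalytic subunit is encoded by Gclc and whose modifier subunit, which makes the enzyme more efficient, by Gclm. Gclm had signals of 1181, 1476 and 1393 on the shear arrays, against 298.3, 243.9 and 255.2 on the static arrays. Gclm rose by 2.28 (95% interval 2.00 to 2.55, adjusted p = 6.8e-06), a linear ratio of 5.08, with the smallest change in pair 1 (1.93, against 2.52 and 2.38). Gclc rose on both of its probe sets, and less. The brighter had 998.7, 930.1 and 1064 on the shear arrays, against 649.8, 611.7 and 657.5 on the static arrays. Its groups did not overlap, but the lowest shear and the highest static array were less far apart than for Gclm. That probe set rose by 0.63 on the log2 scale (95% interval 0.46 to 0.80, adjusted p = 0.00027) and the other by 0.80 (0.60 to 0.99, adjusted p = 0.00015), where shear arrays read 597.1, 672.3 and 696.6 and static arrays 355.0, 367.7 and 386.1. The intervals of the 2 subunits do not overlap, although the difference between their changes was not tested. Gss, the glutathione synthetase that completes the tripeptide, had 603.0, 574.7 and 507.7 in shear and 204.4, 177.9 and 172.8 in static arrays and rose by 1.52 (adjusted p = 1.1e-05).

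Gsr encodes glutathione reductase, which returns oxidised glutathione to its reduced form at the cost of NADPH. Its signal was 341.2, 354.0 and 366.2 on the shear arrays, against 102.6, 68.1 and 93.1 on the static arrays. The shear arrays were alike, and static array 2 was the lowest. Gsr rose by 1.85 (95% interval 1.55 to 2.14, adjusted p = 2e-05), and pairs 1 to 3 gave 1.59, 2.14 and 1.81. With 64 added before log2, the change was 1.47.

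Txnrd1, the cytosolic thioredoxin reductase, is a selenoprotein that keeps thioredoxin reduced with electrons from NADPH. Its brighter probe set read 2917, 3756 and 3544 on the shear arrays, against 468.5, 433.7 and 427.0 on the static arrays, and the other 2417, 3070 and 3027 in shear, against 349.3, 307.5 and 318.5 in static arrays. Shear array 1 was the lowest shear array on both, and static array 1 the highest static array. The log2 fold changes were 2.89 (95% interval 2.66 to 3.12, adjusted p = 1.6e-06) and 3.06 (2.81 to 3.31, adjusted p = 1.8e-06), and without pair 1 they were 3.04 and 3.22. Averages on the brighter probe set were 3406 ± 436 in shear and 443.1 ± 22.3 in static cells (SD, n = 3 each).

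Srxn1 encodes sulfiredoxin, which repairs peroxiredoxins whose active-site cysteine has been over-oxidised. Its brightest probe set read 2895, 3468 and 3330 on the shear arrays, against 329.4, 253.0 and 258.0 on the static arrays. A second read 2341, 3015 and 2830 in shear, against 172.4, 136.1 and 156.8 in static arrays. As for Txnrd1, shear array 1 was the lowest of its group and static array 1 the highest of its group on both probe sets. They rose by 3.46 (95% interval 3.18 to 3.74, adjusted p = 1.8e-06) and by 4.0 (3.71 to 4.29, adjusted p = 1.5e-06). The dimmest probe set annotated with Srxn1 stood at 0.7, 0.7 and 1.2 in shear and 5.3, 4.0 and 8.3 in static arrays. Those signals are too low to be told from background, so this probe set gives no measure of Srxn1. Peroxiredoxin 1 gene Prdx1, which encodes one of the proteins that sulfiredoxin repairs, has no value of its own here.

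Nqo1, a flavoprotein that reduces quinones with NADH or NADPH without releasing semiquinone radicals, is widely used to report NRF2 activity. Its signal was 3631, 4495 and 3919 on the shear arrays, against 2541, 2277 and 2189 on the static arrays. The static signal was already high: by its mean over all arrays the probe set stood at percentile 99.6 of all probe sets, and the highest signal of any probe set was between 4763 and 6325 depending on the array. Nqo1 rose by 0.77 (95% interval 0.58 to 0.97, adjusted p = 0.00019). Pairs 1 to 3 gave 0.51, 0.98 and 0.84, and the change was 0.91 without pair 1. Whether the upper end of the signal range limited this change was not tested.

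Osgin1, oxidative stress induced growth inhibitor 1, is a target of NRF2 named for its effect on cell growth. Its signal was 402.2, 463.2 and 454.3 on the shear arrays, against 35.8, 37.7 and 28.3 on the static arrays. It averaged 439.9 ± 33.0 in shear and 33.9 ± 5.0 in static cells (SD, n = 3 each), a ratio of 12.96. Osgin1 rose by 3.19 on the log2 scale (95% interval 2.92 to 3.47, adjusted p = 2e-06), and pairs 1 to 3 gave 3.01, 3.16 and 3.41. Because its static signal was low, the change ranged from 2.36 with 64 added before log2 to 3.67 with 1 added.

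**Figure D2:**
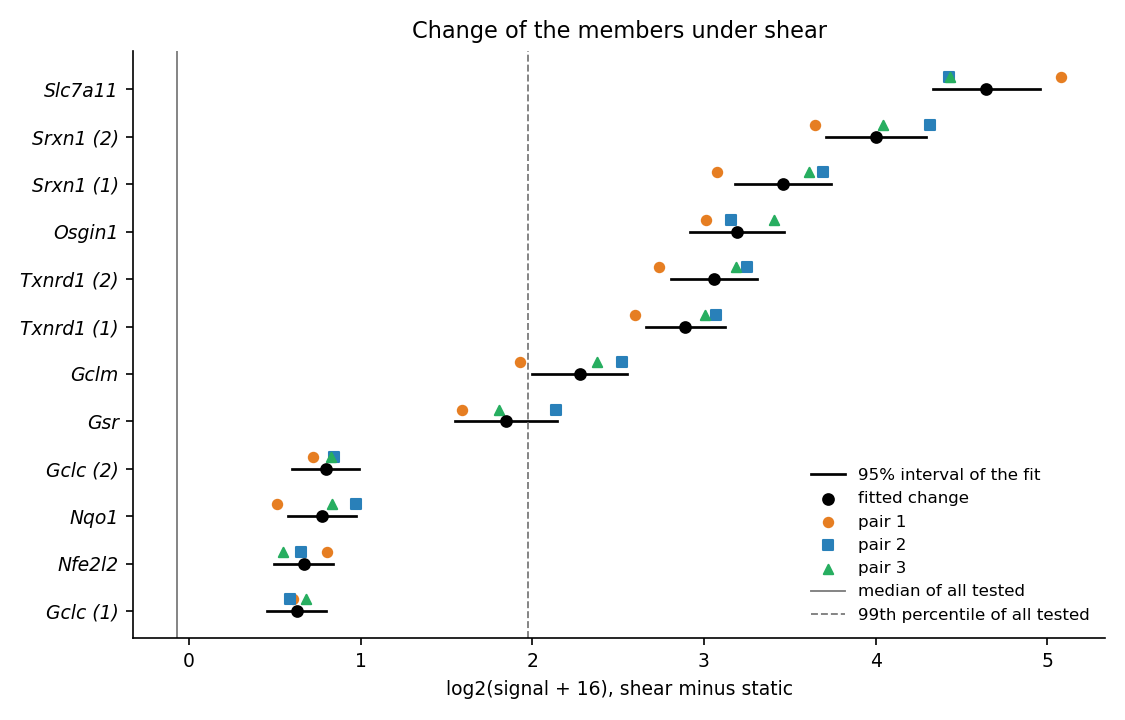
Fitted change of the 12 tested member probe sets on the log2(signal + 16) scale, shear minus static, with 95% intervals and the values of the 3 pairs; grey lines mark the median (-0.067) and the 99th percentile (1.98) of all tested probe sets. All 12 intervals lie above 0, and 7 fitted changes lie right of the 99th percentile.

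Pair 1 gave the smallest of the 3 pair values on 9 of the 12 tested probe sets. The exceptions were Slc7a11 and Nfe2l2, where it gave the largest, and the brighter Gclc probe set, where pair 2 did. Pair 1 was also the lowest on 52.9% of all risen probe sets, these 12 included. Among risen probe sets with a log2 fold change above 2, members included, the share was 68.6%. The fit without pair 1 called the same 12 probe sets as risen, with 1 residual degree of freedom among the 4 remaining arrays.

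The promoter windows of the members show which regulatory letters lie near their annotated starts. RefSeq windows of 300 bases on build GRCr8, from 250 before the gene start to 50 after it, were given for 9 of the 10 genes, Gsr being the other, and Txnrd1 had 2 windows. Each was searched on both strands for the core of the antioxidant response element (TGACNNNGC), for the AP-1 core (TGANTCA) and for the core of the amino acid response element bound by ATF4 (TGATGNAA). The first motif can overlap the second, since TGACTCAGC matches both. The antioxidant response element core was found in 4 of the 9 genes, namely Gclm, Txnrd1, Prdx1 and Nfe2l2, and in 12.1% of 33469 windows of the same length. Members were counted by gene, with Txnrd1 counted if either of its 2 windows matched, whereas the background was counted by window. The AP-1 core was found in Srxn1 and Prdx1, and in 7.33% of windows, and the amino acid response element core in 0 of the 9 genes and in 3.98% of windows. The windows of 3 strongly risen genes that hold a match are shown on the strand of the gene, with the matches in capitals.
Gclm, GRCr8 chr2:213031885-213032184, plus strand: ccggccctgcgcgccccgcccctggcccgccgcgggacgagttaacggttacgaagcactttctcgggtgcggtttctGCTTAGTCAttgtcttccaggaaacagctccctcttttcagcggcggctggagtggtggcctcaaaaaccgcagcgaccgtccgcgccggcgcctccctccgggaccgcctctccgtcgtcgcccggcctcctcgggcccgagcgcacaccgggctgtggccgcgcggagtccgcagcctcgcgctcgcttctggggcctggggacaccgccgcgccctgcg
Txnrd1, window 2, GRCr8 chr7:22755855-22756154, minus strand: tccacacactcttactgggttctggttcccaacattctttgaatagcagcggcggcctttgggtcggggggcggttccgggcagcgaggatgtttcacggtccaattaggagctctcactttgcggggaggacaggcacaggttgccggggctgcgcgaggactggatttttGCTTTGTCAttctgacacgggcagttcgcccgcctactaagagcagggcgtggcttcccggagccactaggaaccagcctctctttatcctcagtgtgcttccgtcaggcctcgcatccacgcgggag
Srxn1, GRCr8 chr3:161064562-161064861, plus strand: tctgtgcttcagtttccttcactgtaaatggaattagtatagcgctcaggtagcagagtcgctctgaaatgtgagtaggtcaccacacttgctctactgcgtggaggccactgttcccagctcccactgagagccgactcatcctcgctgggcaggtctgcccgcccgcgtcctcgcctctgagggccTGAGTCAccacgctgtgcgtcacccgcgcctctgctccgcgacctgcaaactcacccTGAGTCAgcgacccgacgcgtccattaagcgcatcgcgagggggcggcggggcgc

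Positions are counted from the start, with negative ones before it. In Gclm the match lay at -172 to -164 and read TGACTAAGC in the motif's own orientation, and in window 2 of Txnrd1 it lay at -78 to -70 and read TGACAAAGC. Both are on the strand opposite to the gene. Srxn1 had the AP-1 core 2 times, at -62 to -56 and from -5 across the start to 2. With the bases after it, the match at the start reads TGAGTCAGC, which differs from the searched TGACNNNGC only in a G for the C. A looser form of the antioxidant response element core was not searched, so the absence of a match in Srxn1 holds for the strict core only. In Prdx1 the match read TGACTCAGC, at -135 to -127, and overlapped an AP-1 core. In Nfe2l2 it read TGACGCCGC, at 39 to 47. Such a match is a run of letters and not a measured binding site, and the windows without a match (among them Slc7a11 and Osgin1, which rose strongly) say nothing of elements farther away.

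**Figure D3:**
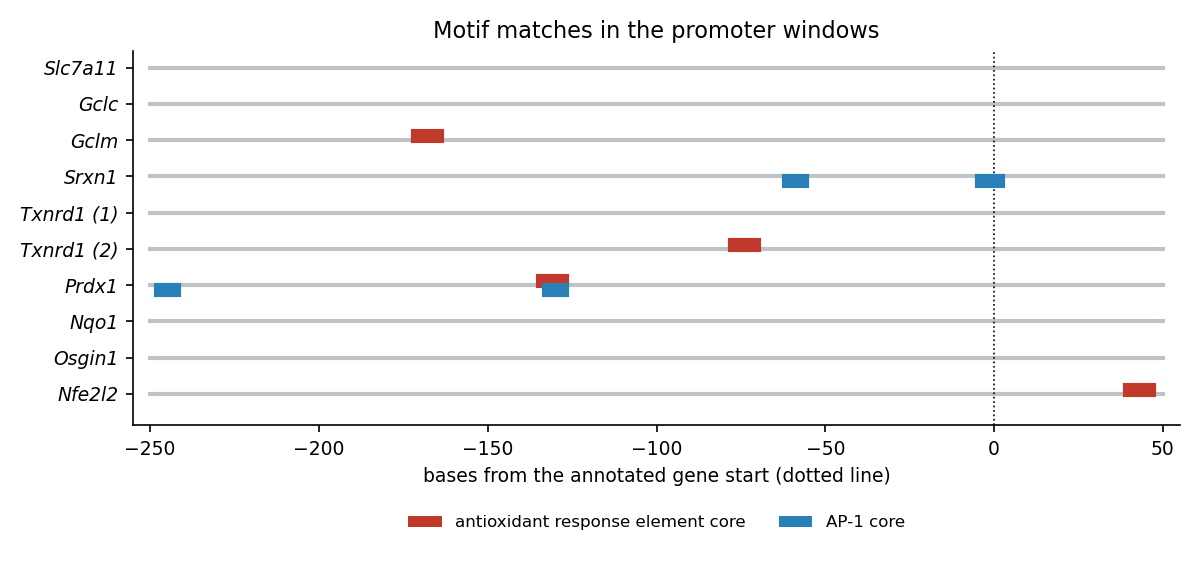
Matches of the antioxidant response element core (red) and the AP-1 core (blue) in the 10 promoter windows of 9 member genes, by distance in bases from the annotated gene start. Red marks stand in Gclm, Txnrd1 (2), Prdx1 and Nfe2l2, blue marks in Srxn1 and Prdx1, and the other windows are empty.

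Genes that regulate NRF2 mostly rose with it. Of 17 tested by their brightest probe set, 11 rose, 3 fell and 3 did not pass, with a median of 0.64, against 24.3% risen and 28.5% fallen of all tested probe sets. Here and for the lists below, genes were counted by their brightest probe set, whereas that background includes dim and secondary probe sets. With the dimmest 50% left out, 4884 of 15521 probe sets rose and 5159 fell. The 5 with the smallest p all rose. Sqstm1, which encodes the autophagy receptor p62 that binds KEAP1, averaged 3050 in shear and 884.3 in static cells (1.77, adjusted p = 5.1e-06), but 1 of its 4 probe sets did not pass (-0.06) and 1 was below the filter, and the mean over its probe sets rose by 0.92. Gsk3b, a kinase that marks NRF2 for degradation independently of KEAP1, rose by 1.77 and Prkcd, a kinase reported to phosphorylate NRF2, by 1.38. The small MAF partners Mafg and Maff rose by 1.41 and 1.29. Genes of the degradation complex and of a repressor were picked out after their values were seen. Keap1 rose on both of its probe sets (0.59 and 0.53), and Bach1, a repressor that competes for the same elements, had 48.4 in shear and 10.5 in static cells and rose by 1.25, or by 0.58 with 64 and 2.09 with 1 added before log2. Cul3 had probe sets that differed: the brightest rose (0.65), another fell (-1.34) and the third did not pass (0.03). Rbx1, the RING subunit of the same ligase, did not pass (-0.10, adjusted p = 0.21). The 3 regulators that fell, also named afterwards, were Brca1 (-0.65), Park7 (-0.54) and Sesn1 (-0.41), with Brca1 and Sesn1 at low signals.

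Other genes of the glutathione system changed in both directions, at shares near those of the whole array. Of 20 tested, 5 rose, 7 fell and 8 did not pass, with a median of -0.25, against 24.3% risen and 28.5% fallen of all tested probe sets. A further 2 were below the filter, and 4 fell in the fit without pair 3. Of the 5 genes with the smallest p, Gss and Slc3a2 rose and the other 3 fell. The endoplasmic reticulum peroxidase gene Gpx8 averaged 1116 in shear and 2147 in static cells (-0.94, adjusted p = 2.6e-05). Gpx1, the main cytosolic glutathione peroxidase and a selenoprotein, averaged 712.7 in shear and 1638 in static cells (-1.18, adjusted p = 3.2e-05). Glutaredoxin Glrx, which uses glutathione to reduce mixed disulfides, fell on both of its probe sets (-0.77 and -0.74). Among genes singled out after their values were seen, Ggt1, which splits extracellular glutathione, rose by 1.01 (0.54 with 64 added before log2), and so did Ggct, of the gamma-glutamyl cycle, on its brighter probe set (1.16), while its other probe set did not pass (0.06).

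Among genes of the thioredoxin system outside the members, 7 rose, 9 fell and 6 did not pass of 22 tested, with a median of -0.14. Over all tested probe sets 24.3% rose and 28.5% fell. Median centring gave 10 risen and 7 fallen genes, and 4 rose in the fits without pair 2 or pair 3. The peroxiredoxin genes Prdx5 (2458 in shear and 1073 in static cells, 1.19) and Prdx6 (2136 in shear and 893.1 in static cells, 1.24) rose, as did the thioredoxin-like gene Txnl1 (0.73). Sephs1, of the selenophosphate synthetase family, fell by 1.11 on its brightest probe set, and the methionine sulfoxide reductase gene Msrb3 fell by 0.90. Sephs1 fell on other probe sets too (-0.88, and -0.95 at low signals), while 1 dim probe set did not pass (-0.02) and 1 was below the filter. Thioredoxin and its inhibitor were looked at after the results had been seen. Thioredoxin Txn1, the substrate of Txnrd1, averaged 4588 in shear and 4008 in static cells and rose by 0.19 (adjusted p = 0.0081). That call was lost without the pair block (adjusted p = 0.076), after quantile normalization (0.03, adjusted p = 0.56) and without pair 2 (adjusted p = 0.063) or pair 3 (adjusted p = 0.12). Txnip, which encodes the thioredoxin-binding inhibitor, fell by 0.59 (adjusted p = 0.018), a call lost without the block (adjusted p = 0.19) and after median centring (-0.45, adjusted p = 0.071). Its pair values were -1.18, -0.34 and -0.26, the groups overlapped, and without pair 1 the change was -0.30 (adjusted p = 0.00017). The p-values of fits without a pair rest on 1 residual degree of freedom and the shared variance estimate of eBayes, so this lower p does not make the fall of Txnip firmer.

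Both reductases of the core, Gsr and Txnrd1, draw on NADPH. Of 17 tested genes of its supply 6 rose, 8 fell and 3 did not pass, with a median of -0.29, beside 24.3% risen and 28.5% fallen on the whole array. Transaldolase Taldo1 averaged 2007 in shear and 616.7 in static cells (1.67, adjusted p = 3.1e-06), and phosphogluconate dehydrogenase Pgd rose by 1.37. Me1 (1.14), the cytosolic malic enzyme, and transketolase Tkt (0.70), both looked at by name afterwards, rose as well. Of other pentose phosphate genes, also picked out afterwards, Rpia rose (0.52), Pgls fell (-0.41) and Rpe did not pass (-0.02). The mitochondrial isocitrate dehydrogenase Idh2 averaged 140.6 in shear and 1149 in static cells and fell by 2.90 on the log2 scale (adjusted p = 1.5e-06). The mitochondrial transhydrogenase Nnt fell by 1.94 and the folate enzyme gene Mthfd1 by 1.72, as did Aldh1l2, a mitochondrial folate enzyme gene picked out afterwards, by 2.96. Also named afterwards, the NAD kinase gene Nadk (-1.80, adjusted p = 1.3e-05), the cytosolic isocitrate dehydrogenase Idh1 (-0.57, adjusted p = 0.0019) and Mthfd1l (-0.33) fell. A second NAD kinase gene, the mitochondrial Nadk2, rose (0.44).

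Other genes listed as NRF2 targets rose in 14 of 27 cases and fell in 4, with 9 not passing, a median of 0.26 and 3 below the filter, against 24.3% risen and 28.5% fallen of all tested probe sets. After quantile normalization 2 fell. Heme oxygenase Hmox1 had 3600, 4273 and 3998 on the shear arrays, against 438.4, 210.8 and 230.3 on the static arrays, and rose by 3.75 (adjusted p = 7.8e-06). Its groups did not overlap, and static array 1 was the highest static array, as for Srxn1 and Txnrd1. Ugdh, which makes UDP-glucuronate, rose by 1.55, the ubiquitin ligase gene Trim16 by 1.76 and the glutathione transferase gene Gstp1 by 0.59. The aldehyde dehydrogenase gene Aldh3a1 averaged 27.6 in shear and 0.900 in static cells. Its static signals of 1.4, 0.7 and 0.6 are too low to be told from background, so no size is given for its change. It passed the filter through the shear arrays and dropped out when the dimmest 50% of probe sets were removed. Akr1b8, an aldo-keto reductase gene picked out after its values were seen, averaged 5230 in shear and 1085 in static cells and rose by 2.42. Its static arrays 1 to 3 were uneven, at 1869, 681.2 and 703.3, and pairs 1 to 3 gave 1.37, 3.03 and 2.84. The 4 targets that fell, also named afterwards, were Akr7a3 (-0.58), Esd (-0.56), Abcb6 (-0.52) and Mgst1 (-0.31). Akr7a3 was dim, with means of 3.67 in shear and 13.5 in static cells.

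**Figure D4:**
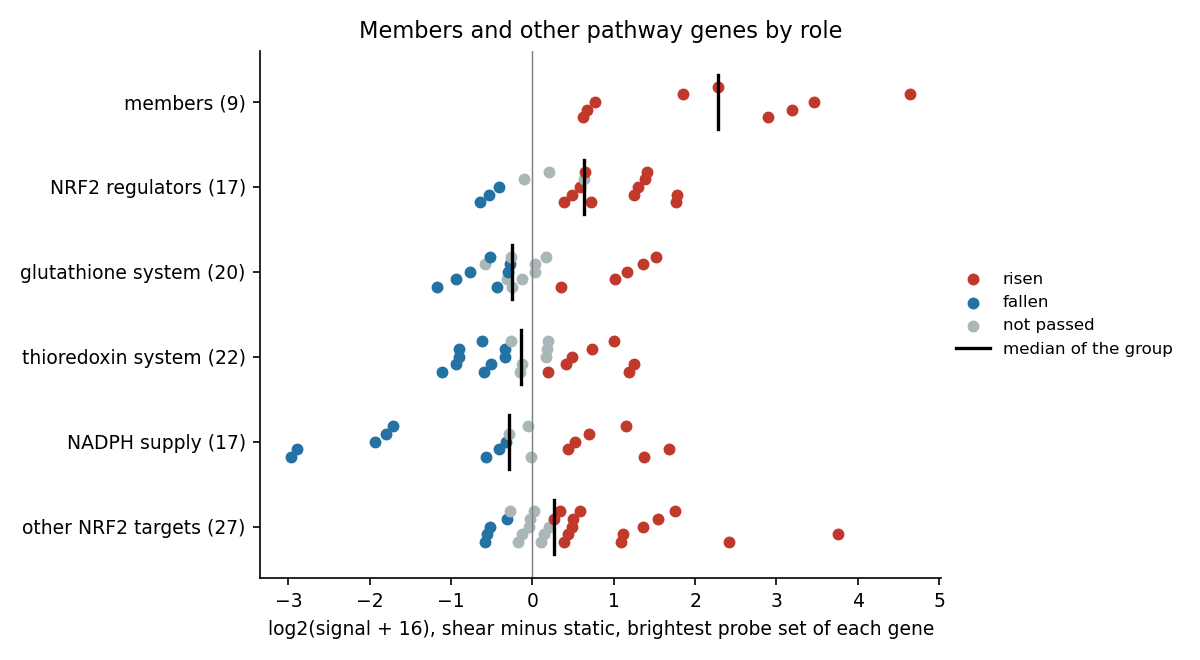
Log2 change, shear minus static, of the brightest probe set of each tested gene, for the 9 members and 5 groups of other pathway genes, coloured by call, with a bar at each median and the number of genes in brackets. The members lie wholly right of 0 with a median of 2.28, whereas the glutathione, thioredoxin and NADPH groups spread to both sides with medians of -0.25, -0.14 and -0.29.

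Across the 6 arrays, other genes with profiles like those of 3 members were sought among 11239 tested genes by Pearson correlation of log2(signal + 16). The points share the separation of the 2 groups, so high values are common: 1558 genes exceeded 0.95 with Slc7a11, 1718 with Txnrd1 and 1249 with Nqo1. Highest with Slc7a11 were Fnip2 (0.99988), Zmym5 (0.99949) and Polr1f (0.99943). With Txnrd1 they were Rbm38 (0.99978), Mnt (0.99961) and Nr2f1 (0.99948), and with Nqo1 they were Hook3 (0.9989), Stard3 (0.9988) and C8h15orf61 (0.9983). The likeness is in the order and spacing of the arrays and not in size, as Zmym5 rose by 0.66 and Slc7a11 by 4.65.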

How the data were processed

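The deposited intensity values were made by the authors with MAS5, per the submitters' processing notes; the notes name no version. There was 1 value per probe set, and its mean without the outer 2% was 100.0 on each array. Probe sets were named through the platform annotation: of 31042 that are no controls, 20826 had 1 symbol, 436 several and 9780 none. Promoter windows are RefSeq's for GRCr8, which is not a build of the arrays.

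Exact zeros (3 to 10 per array) led to the addition of 16 before log2, so fold changes understate the change of dim genes. Probe sets with a mean log2 under 4.50 were left out, leaving 21729. The comparison of shear with static used limma 3.58.1 (R 4.3.3; lmFit, eBayes with an intensity trend, pairing number as a fixed block), with two-sided p-values corrected by the Benjamini-Hochberg method across the 21729 tests. The fit was also run on simulated arrays with known changes, only to check that its estimates return the change put in. Those arrays had no pair effect and a far smaller share of changed probe sets, so they do not measure error rates here. Precision is limited by the number of arrays, and detection calls were not used here. Pairing comes from the labels and the design text. Partners' deviations from their group means had weak correlations of 0.071, 0.065 and 0.063 in pairs 1 to 3. By these deviations, each array correlated best with its partner among the arrays of the other group. A gene with several probe sets was taken by the one with the highest mean log2 signal.

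Members, lists and rules were chosen with earlier results of these data known. The 5 lists of other pathway genes and the 4 marker lists held 155 entries, of which 146 had a probe set with 1 symbol. Named by rule were every member probe set, the 5 genes of each pathway list with the smallest p, and the 3 most correlated genes for Slc7a11, Txnrd1 and Nqo1. Further pathway genes were picked out after their values were seen, as said where they appear, and markers were also named outside this rule. Alternatives were no block, quantile normalization, median centring, no filter or a 50% filter, 64 or 1 added before log2, eBayes without trend or robust, each pair left out, and an average of the tested probe sets of each gene. Figures used matplotlib 3.10.9 (Python 3.11.15).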

Additional observations from a re-analysis of the deposited data

Results flagged for a closer look

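The probe set annotated with both Prdx1l1 and Prdx1 was outside the comparisons above, since its signal cannot be assigned to either gene. It averaged 5276 ± 672 in shear and 2793 ± 49.2 in static cells (SD, n = 3 each), with 4515, 5787 and 5526 on shear arrays 1 to 3, against 2767, 2850 and 2762 on static arrays 1 to 3. All shear arrays lay above all static arrays, and it rose by 0.91 on the log2 scale (95% interval 0.74 to 1.07, adjusted p = 3.2e-05 by limma). Groups of 3 arrays are too small for a search for outlying arrays, and no further result was picked out.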

How the results depend on the processing

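All 12 tested member probe sets rose under each of the 12 alternatives that keep probe sets apart, including no replicate block (12 risen, 0 fallen) and each pair left out (12 risen each time). The median over member genes ranged from 2.10 (64 added) to 2.45 (without pair 1), and was 2.28 without the replicate block and as a mean over probe sets. Among the members and the pathway genes followed through the alternatives, taken by their brightest probe set, the block changed no other call than those of Txn1 and Txnip. Genes only added to the account of a list, such as Rbx1, Rpia and Esd, were not followed. Over all tested probe sets, leaving out a pair gave 3876 to 5819 risen and 4565 to 7190 fallen. The fits without a pair rest on 1 residual degree of freedom and depend on the shared variance estimate of eBayes. Among the lists, 2 other NRF2 targets fell after quantile normalization, against 4. With a pair left out, 4 to 10 thioredoxin system genes rose and 4 to 10 glutathione system genes fell. Cul3 turned to -0.22 as a mean over its probe sets (adjusted p = 0.092). Txn1 also did not pass without the filter (adjusted p = 0.051) or the intensity trend (adjusted p = 0.15), nor Txnip without the filter (adjusted p = 0.055). Of 467 comparisons of the other followed genes with an alternative, 457 kept direction and call. The causes of the others were not tested. Low signals, such as those of Bach1 and Aldh3a1 in static cells, limit how well a fold can be measured.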
